A study of Mus musculus with 12 samples.

Results

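The surface of a blood progenitor carries the antigens by which it is sorted, and 9 genes encoding such antigens were followed here in RNA from pre-megakaryocyte-erythroid progenitors (PreMegEs). The genes were Cd34, Kit, Ly6a, Slamf1, Cd48, Eng, Cd9, Fcgr3 and Fcgr2b, taken by their symbols from a table of 41128 genes, and all 9 were present with counts in every library. RNA was sequenced from PreMegEs of adult C57BL/6 mouse bone marrow (males and females, 12 to 16 weeks old), in 4 groups of 3 libraries, each library made from cells pooled from 3 mice. WT cells carried unmodified Runx1. P2- and P2+ cells came from mice heterozygous for a Runx1 knock-in (Runx1 P1-GFP::P2-hCD4/+), in which GFP reports the distal promoter P1 and a truncated human CD4 reports the proximal promoter P2. These cells were GFP-positive and were split by human CD4, so both groups shared the reporter allele, and the knock-in allele may itself lower Runx1 dosage. KO cells were labelled RUNX1C knockout and came from mice homozygous for the GFP insertion at P1, which removes the P1-derived isoform RUNX1C and leaves P2 in place. Genotype and the human CD4 sort could therefore not be told apart where P2- or P2+ was compared with WT or KO, for which the labels give no such split.

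PreMegEs are bipotent progenitors that give rise to megakaryocytes, the source of platelets, and to red blood cells. They are recognised by antibodies, not by RNA: the gate kept lineage-negative cells that stained for c-Kit, the receptor for stem cell factor encoded by Kit, and for CD150, the SLAM family receptor encoded by Slamf1. It removed cells that stained for Sca-1 (Ly6a, a GPI-anchored protein of stem cells and multipotent progenitors), CD16/32 (Fcgr3 and Fcgr2b, the activating and the inhibitory low-affinity IgG receptors, both bound by the same antibody), endoglin (Eng, a co-receptor for TGF-beta family ligands that marks later erythroid-biased progenitors) and CD41. The products of the remaining genes were not part of the gate. CD34 is a sialomucin of stem and progenitor cells, CD9 is a tetraspanin abundant on megakaryocytes and platelets, and CD48 is a GPI-anchored SLAM family ligand used to separate stem cells from multipotent progenitors. Since every sample had passed the same gate, the values below describe RNA that remained among cells chosen for protein, and in these bulk libraries fewer cells of a type and less RNA per cell cannot be told apart.

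Libraries held between 10726098 and 14445026 counts assigned to genes, so that 3 counts corresponded to 0.208 to 0.280 CPM. CPM, counts per 1000000 counts of a library, were scaled here with TMM library sizes. Runx1 itself, taken over both promoters, lay between 203 and 217 CPM in P2-, 358 and 387 in WT, 614 and 659 in P2+ and 341 and 382 in KO. The P2 sort was thus visible in total Runx1 RNA, whereas the KO and WT ranges overlapped, and gene-level counts, which add up the isoforms, did not check the RUNX1C label. RNA of genes of both lineages was present in each group: 9 megakaryocyte genes summed to 257 to 325 CPM in P2-, 584 to 604 in KO, 724 to 818 in WT and 1140 to 1650 in P2+, and 9 erythroid genes summed to 1940 to 2410, 1910 to 2150, 1190 to 1330 and 196 to 268 CPM in the same order. Replicate 2 of P2- and replicate 2 of P2+ stood apart in 6 immediate early genes, which summed to 10500 and 7070 CPM against at most 1020 CPM in the other 10 libraries. Where leaving these libraries out changed the call of an antigen gene, both values are given.

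The 9 genes lie on 5 chromosomes of GRCm38 and 5 of them on chromosome 1. Fcgr2b (chr1:170958617-170976547, minus strand), Fcgr3 (chr1:171051174-171064935, minus strand), Cd48 (chr1:171682009-171705258, plus strand) and Slamf1 (chr1:171767127-171801184, plus strand) lie close together on chromosome 1, and Cd34 (chr1:194938819-194961279, plus strand) lies further along it. Eng (chr2:32646595-32682669, plus strand), Kit (chr5:75574916-75656722, plus strand), Cd9 (chr6:125460266-125494791, minus strand) and Ly6a (chr15:74994877-74998031, minus strand) make up the rest. All are protein-coding. Promoter windows from 250 bases before to 50 bases after the RefSeq start (GRCm38.p6) were available for 8 of the 9 genes, without Ly6a. They are printed for Cd34 and Cd9, which had the largest differences that passed the test between P2+ and P2-, and for Cd48, the only one of the 8 windows with the RUNX letters searched here. Short core motifs of blood transcription factors were searched on both strands, in the spellings given here and no others. The letters for RUNX were TGTGGT and those searched for GATA factors were AGATAA. For ETS factors the letters GGAAGT were used. For KLF factors the pattern was CCNCNCCC, in which N stands for any base. Capitals mark matches to any of them, and adjacent capitals may be overlapping matches. The windows are chr1:194938571-194938870 (plus strand) for Cd34, chr6:125494711-125495010 (minus strand) for Cd9 and chr1:171681742-171682041 (plus strand) for Cd48, each written 5′ to 3′ on the gene's strand.
Cd34 promoter: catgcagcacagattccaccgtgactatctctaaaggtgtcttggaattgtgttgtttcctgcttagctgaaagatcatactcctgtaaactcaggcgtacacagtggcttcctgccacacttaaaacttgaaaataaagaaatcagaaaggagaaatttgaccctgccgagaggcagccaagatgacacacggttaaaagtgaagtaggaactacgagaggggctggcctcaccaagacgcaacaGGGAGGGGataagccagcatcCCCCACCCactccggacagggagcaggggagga
Cd9 promoter: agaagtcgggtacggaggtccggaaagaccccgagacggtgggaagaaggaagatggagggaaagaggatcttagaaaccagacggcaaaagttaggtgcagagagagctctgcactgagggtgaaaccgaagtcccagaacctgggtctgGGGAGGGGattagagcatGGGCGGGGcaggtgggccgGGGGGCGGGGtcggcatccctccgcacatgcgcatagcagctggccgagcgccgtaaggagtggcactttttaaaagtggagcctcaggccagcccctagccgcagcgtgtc
Cd48 promoter: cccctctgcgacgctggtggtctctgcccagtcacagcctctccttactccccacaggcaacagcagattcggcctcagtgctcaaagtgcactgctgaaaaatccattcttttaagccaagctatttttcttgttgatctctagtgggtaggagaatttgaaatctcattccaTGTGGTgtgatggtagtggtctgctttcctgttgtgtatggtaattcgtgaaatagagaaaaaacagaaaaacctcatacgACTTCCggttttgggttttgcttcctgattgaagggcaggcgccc

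The Cd48 window held 1 RUNX match, 76 bases before the start, and 1 ETS match. The Cd34 window held 2 KLF matches and the Cd9 window 4, and neither held a match to the other 3 motifs. Across the 8 windows a RUNX match was present in Cd48, ETS matches in Cd48, Eng and Fcgr2b, KLF matches in Cd34, Kit, Slamf1, Eng and Cd9, and a GATA match in none. Of 27025 RefSeq promoter windows of the same length, 17.0% held the RUNX letters, 11.4% the GATA letters, 24.0% the ETS letters and 48.9% the KLF letters, so matches of this kind are common.

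The IgG receptor genes share sequence, and the longest run they share in coding sequence is shown because reads inside it cannot be told apart. The longest identical run between the coding sequences of Fcgr2b (chr1:170966674-170968081, exons 3 to 4, minus strand) and Fcgr3 (chr1:171054167-171057792, exons 3 to 4, minus strand) was 129 bases long, and a 75-base read that falls inside it matches both genes.
Fcgr2b and Fcgr3 shared run: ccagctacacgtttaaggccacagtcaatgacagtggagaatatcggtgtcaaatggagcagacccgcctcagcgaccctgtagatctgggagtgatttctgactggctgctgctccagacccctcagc

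Counted over all transcripts, and not in this run alone, 94 windows of 75 bases were identical between the genes, 5.42% of the windows of Fcgr3 and 1.63% of those of Fcgr2b. Cd9 had the highest share of windows found in other genes, 7.63% in all, most of them in Gm26728 (7.32%). Ly6a had 6.33%, of which 5.87% were shared with Ly6c1, another member of its family. Fcgr2b had 5.43% in all, with 2.13% shared with Cplx2. Cd34 had 1.04% and Slamf1 0.756%, and Kit, Cd48 and Eng had none. Exons of Cd34, Eng, Cd9 and Fcgr2b overlap a gene on the opposite strand. The kit kept strand, but whether counting used it was not given in the sources used here. Of the overlapping genes, Fpgs, opposite Eng, had 96.2 to 116 CPM in P2-, 90.7 to 98.4 in KO, 65.2 to 68.9 in WT and 42.9 to 48.5 in P2+. Fpgs was thus lower in P2+ than in P2-, as the Eng mean was, and its part in the Eng values was not tested. Gm16897, opposite Cd34, had at most 2 counts in any library. Values of Eng, Cd34, Cd9, Fcgr2b, Fcgr3 and Ly6a carry this uncertainty.

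Levels of different genes were compared per kilobase of exon (RPKM, using all annotated exon bases of each gene). Kit RNA was the most abundant of the 9 in every group, with group means of 91.4 to 122 RPKM. Slamf1, the other antigen the gate selects for, had 5.86 to 9.61 RPKM. Among antigens the gate selects against, Eng had 25.7 to 31.6 RPKM, which was above Slamf1 in every group, whereas Ly6a had 0.951 to 2.75, Fcgr2b 1.31 to 2.87 and Fcgr3 0.313 to 0.924 RPKM. Group means of the antigens outside the gate ran from 6.52 to 42.9 RPKM for Cd34, from 18.2 to 59.9 for Cd9 and from 42.6 to 71.2 for Cd48. These levels depend on which exon bases are counted, and over the longest transcript alone Slamf1 had 8.16 to 13.4 and Eng 30.4 to 37.4 RPKM. Other genes of the lineage antibody cocktail (7 listed) summed to between 105 and 153 CPM, nearly all of it Ptprc with group means of 107 to 138 CPM. Ptprc encodes CD45, of which the B220 antigen is an isoform that gene counts do not separate.

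**Figure D1:**
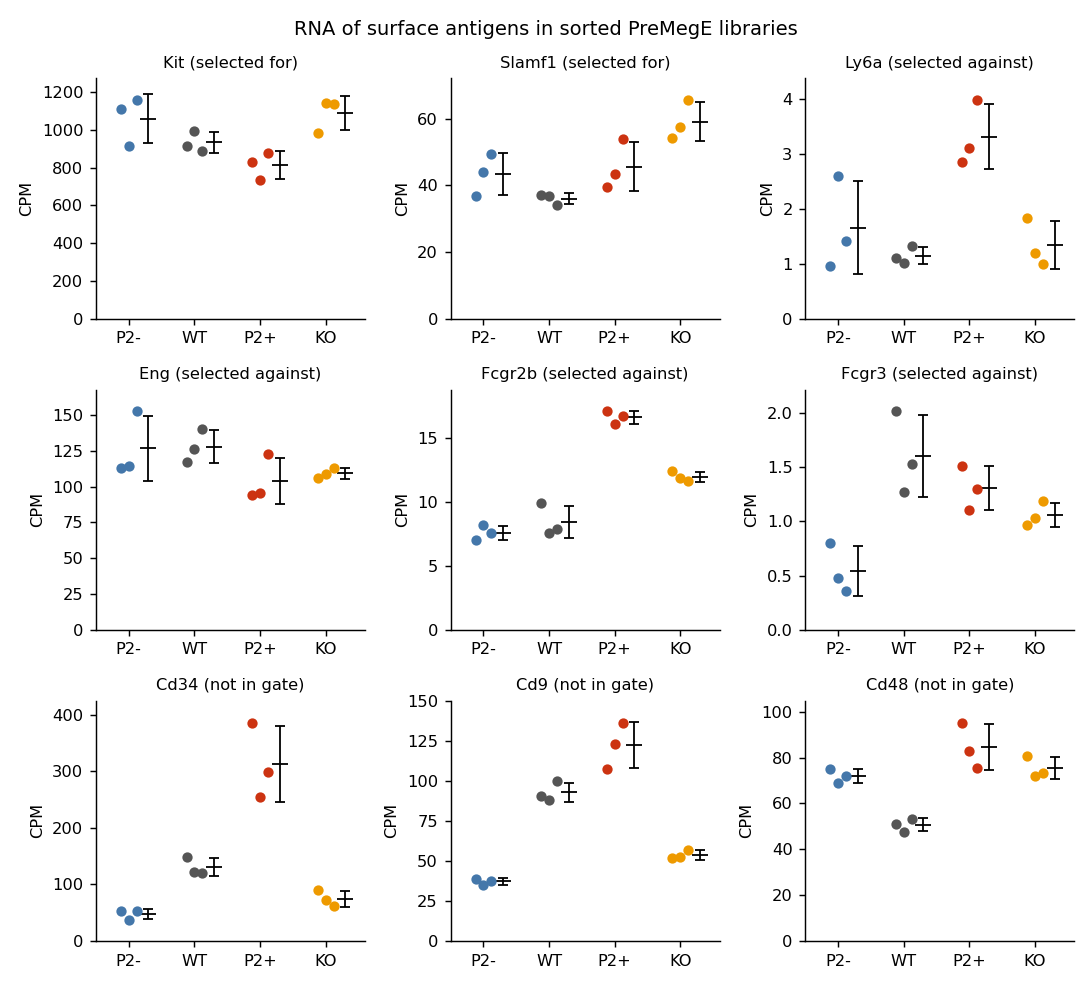
CPM of the 9 antigen genes (vertical axis, linear, from 0) in 3 libraries of each group (points), with the group mean and SD beside them (bars). Cd34 and Cd9 rise in the order P2-, KO, WT, P2+, Cd48 is lowest in the 3 WT libraries, and Slamf1 is highest in the 3 KO libraries.

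P2+ and P2- PreMegEs came from mice of the same genotype and from the same gate, and differed in the human CD4 sort, so this comparison asks which antigen RNAs go with P2 activity. Cd34, Cd9 and Fcgr2b RNA were higher in P2+ and Kit RNA was lower. These 4 of 9 genes passed edgeR's quasi-likelihood test at an adjusted p under 0.05, beside 37.1% of all 12836 genes tested, and 3 of them also differed at least 2-fold, beside 12.7% of all genes. Libraries of P2+ and P2- did not overlap for 7 of the 9 genes, beside 49.9% of all genes. The median log2 fold change was 1.03 over the 9 and -0.0199 over all genes. Fcgr3, under 1 CPM in every P2- library, passed the count filter only through P2+, which set its direction. It counts in that median and among the 7 genes without overlap.

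Cd34 showed the widest difference. P2- libraries had 52.6, 37.5 and 52.5 CPM (mean 47.5 ± 8.67, SD, n = 3) and P2+ libraries had 386, 254 and 298 CPM (313 ± 67.4). Every P2+ library stood well above every P2- library, and the log2 fold change was 2.73 (SE 0.18, adjusted p = 1.11e-05), a 6.63-fold difference. Cd9 had 39.0, 34.9 and 37.6 CPM in P2- (37.1 ± 2.06) and 108, 123 and 136 CPM in P2+ (122 ± 14.4). Here too no libraries overlapped, and Cd9 was 3.32-fold higher in P2+ (log2 fold change 1.73, SE 0.10, adjusted p = 6.24e-06). Without replicate 2 of both groups the log2 fold changes were 2.73 for Cd34 (adjusted p = 5.43e-09) and 1.70 for Cd9 (adjusted p = 2.94e-07).

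Fcgr2b, the inhibitory IgG receptor, had 7.01, 8.17 and 7.56 CPM in P2- and 17.1, 16.1 and 16.7 CPM in P2+, with little spread inside each group. It was 2.22-fold higher in P2+ (log2 fold change 1.15, SE 0.15, adjusted p = 5.11e-04) although cells staining for CD16/32 had been removed from both groups. Fcgr3, the activating receptor, was near the detection limit, with 10, 5 and 5 counts in P2- and 18, 16 and 17 counts in P2+ (0.353 to 0.797 and 1.11 to 1.51 CPM). Its log2 fold change of 1.26 (SE 0.49) did not pass (adjusted p = 0.0734). Most granulocyte and monocyte genes, of which IgG receptors are typical, moved with this comparison. The summed level of 9 such genes was 26.2 to 53.8 CPM in P2- and 108 to 270 CPM in P2+. Mpo gave the largest part of the P2+ sum (mean 104 CPM, against 11.3 in P2-). None of the 9 was at 0 in all libraries of either group, but 1 had at most 3 counts in each library. Of 8 tested, 6 were higher in P2+, beside 20.1% of all genes, and Elane and S100a8 did not pass. Csf1r, with at most 0.478 CPM in P2-, passed the count filter only through P2+, which set its direction. The part of these genes in the Fcgr2b difference was not tested.

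Kit RNA had 1109, 913 and 1157 CPM in P2- and 831, 733 and 879 CPM in P2+. The lowest P2- library lay just above the highest P2+ library. Kit was 1.29-fold lower in P2+ (log2 fold change -0.37, SE 0.10, adjusted p = 0.0224), and adjusted p lay between 0.0629 and 0.0865 when P2+ replicate 1, P2+ replicate 2, P2- replicate 1 or P2- replicate 3 was left out. With edgeR's exact test, the test of the study's methods, Kit did not pass either (adjusted p = 0.133). Leaving out replicate 2 of both groups, the libraries with high immediate early genes, gave -0.38 (adjusted p = 0.00447). Slamf1, also selected for, had overlapping values of 36.7, 44.1 and 49.5 CPM in P2- and 39.6, 43.5 and 53.9 CPM in P2+. Its log2 fold change was 0.08 with a 95% interval from -0.26 to 0.43 (adjusted p = 0.702).

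Ly6a RNA was low, with 12, 27 and 20 counts in P2- and 34, 45 and 52 in P2+ (0.956, 2.60 and 1.41 against 2.85, 3.11 and 3.97 CPM). P2- replicate 2, with high immediate early genes, was the P2- library nearest to P2+. The log2 fold change was 1.03 (SE 0.41, adjusted p = 0.0827), and 1.54 (adjusted p = 0.0186) without replicate 2 of both groups. Cd48 was 1.19-fold higher in P2+ (log2 fold change 0.25, SE 0.10, adjusted p = 0.0767) and Eng 1.21-fold lower (-0.27, SE 0.14, adjusted p = 0.173), and neither passed.

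Same-numbered P2+ and P2- libraries deviated together from their group means (correlations of 0.386, 0.572 and 0.405). Deviations from a mean of 3 libraries are tied to each other, so these are not 3 independent signs of pairing. Replicate 2, which stood apart in both groups, bears on all of them. With the replicate number as a block 7 of the 9 genes passed instead of 4, beside 50.7% of all genes in that fit. The 3 added were Ly6a (adjusted p = 0.0398), Cd48 (0.24, adjusted p = 0.0151) and Eng (-0.27, adjusted p = 0.00208). In the blocked fit Fcgr3 (1.30, adjusted p = 0.0601) and Slamf1 (0.08, adjusted p = 0.453) still did not pass.

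**Figure D2:**
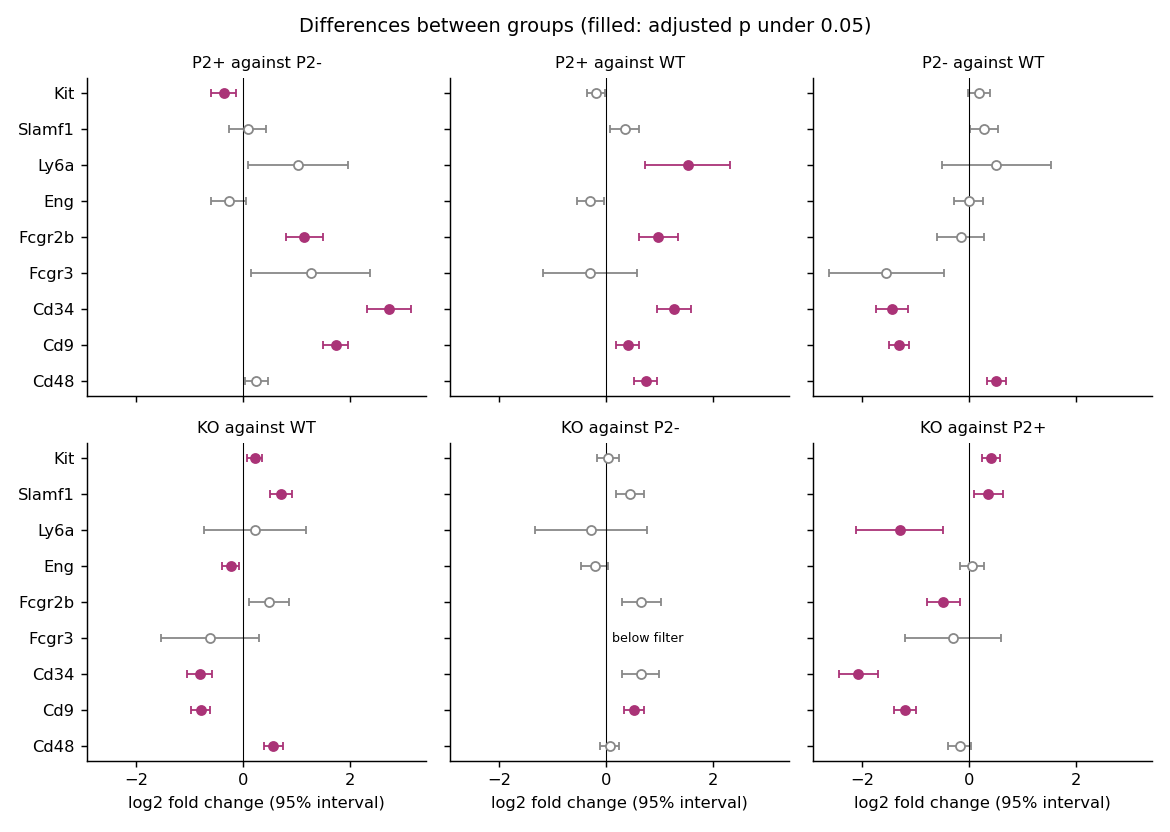
Log2 fold changes of the 9 genes (horizontal axis, with 95% intervals) in each of the 6 comparisons between groups, filled where the adjusted p was under 0.05. Cd34 and Cd9 are filled in every panel but KO against P2-, where Cd9 alone is filled, and Fcgr3 did not pass the count filter in that panel.

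Both reporter groups were also set against WT. The 2 comparisons share the 3 WT libraries, so their values are given side by side and not as independent results. In P2+ against WT, 5 of the 9 genes passed, all higher in P2+, beside 16.5% of all genes tested (9.45% higher and 7.07% lower in P2+). In P2- against WT, 3 of the 9 passed, 1 higher and 2 lower, beside 16.5% of all genes (6.85% higher and 9.6% lower in P2-). At least 2-fold differences were found for 2 of the 9 in each, beside 3.84% and 4.68% of all genes. Libraries did not overlap for 7 genes in the first and 4 in the second, beside 35.5% and 35.1% of all genes.

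WT lay between the reporter groups for Cd34, with 149, 122 and 120.1 CPM (130.4 ± 15.9). P2+ was 2.40-fold higher than WT (log2 fold change 1.26, SE 0.14, adjusted p = 2.77e-04) and P2- was 2.74-fold lower (-1.45, SE 0.13, adjusted p = 9.46e-05). On the CPM scale the WT mean stood 31.3% of the way from the P2- mean to the P2+ mean. Cd9 also lay between, with 90.3, 88.3 and 99.7 CPM in WT (92.7 ± 6.10), but nearer to P2+, at 65.2% of the way. Against WT, Cd9 was 2.49-fold lower in P2- (log2 fold change -1.32, SE 0.09, adjusted p = 2.01e-05) and 1.32-fold higher in P2+ (0.40, SE 0.10, adjusted p = 0.0180). Without WT replicate 1, WT replicate 2 or P2+ replicate 3, the Cd9 difference of P2+ from WT had adjusted p values of 0.0738, 0.0796 and 0.0661.

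Fcgr2b did not lie midway. WT libraries had 9.92, 7.61 and 7.87 CPM, overlapping P2- (log2 fold change of P2- against WT -0.16, 95% interval -0.60 to 0.28, adjusted p = 0.635), and stood 1.97-fold below P2+ (0.98, SE 0.17, adjusted p = 0.00284). Fcgr3 gave another order. WT had the highest values, 29, 15 and 21 counts (2.01, 1.27 and 1.53 CPM), with P2- lower (log2 fold change -1.55, SE 0.49, adjusted p = 0.0532, not passing) and P2+ overlapping WT (-0.30, SE 0.40, adjusted p = 0.661). Granulocyte and monocyte genes summed to 86.0 to 210 CPM in WT, overlapping P2+ and above P2-.

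Cd48 was the gene of the 9 that passed the test in the same direction in both reporter groups against WT. WT libraries had 51.0, 47.7 and 53.4 CPM (50.7 ± 2.86), P2- libraries 75.04, 69.0 and 71.8 CPM (71.9 ± 3.05) and P2+ libraries 95.3, 83.0 and 75.6 CPM (84.6 ± 9.94). Every WT library was below every library of the other groups. The log2 fold change against WT was 0.74 in P2+ (SE 0.10, adjusted p = 6.76e-04) and 0.51 in P2- (SE 0.08, adjusted p = 0.00264), and both passed in all 14 alternative fits of each comparison, although neither met the 2-fold requirement. The reporter allele and the WT libraries are common to both comparisons, and their part in the difference cannot be told apart.

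Ly6a was 2.88-fold higher in P2+ than in WT, whose libraries had 16, 12 and 18 counts (log2 fold change 1.53, SE 0.36, adjusted p = 0.0158), and without WT replicate 1 or WT replicate 2 the adjusted p was 0.0521 and 0.0598. P2- and WT overlapped for Ly6a (0.51, 95% interval -0.52 to 1.53, adjusted p = 0.509), and without P2- replicate 2 the log2 fold change was 0.047 (adjusted p = 0.963). Without either of those WT libraries 3 of the 9 genes passed in P2+ against WT instead of 5, Cd9 and Ly6a being the ones lost. Kit in WT had 917, 996 and 888 CPM, between the reporter groups. Its log2 fold change was -0.19 in P2+ (adjusted p = 0.113) and 0.18 in P2- (adjusted p = 0.200), and without P2- replicate 2 the latter was 0.27 (adjusted p = 0.0292). Slamf1 (0.35 in P2+, adjusted p = 0.0828, and 0.27 in P2-, adjusted p = 0.151) and Eng (-0.29, adjusted p = 0.106, and -0.01, adjusted p = 0.960) did not pass.

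KO against WT asks how antigen RNA in the PreMegE gate differs when RUNX1C is missing. Whether KO libraries were prepared or sequenced together with the other groups was not given in the sources used here, so genotype and a possible batch cannot be told apart in any comparison with KO. Of the 9 genes 6 passed, 3 higher in KO (Slamf1, Cd48 and Kit) and 3 lower (Cd34, Cd9 and Eng), beside 14.9% of all 12784 genes tested. None of them differed 2-fold, beside 3.41% of all genes. Libraries did not overlap for 7 of the 9 genes, beside 31.7% of all genes. These were the same WT libraries as above.

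Slamf1, which encodes the antigen selected for, had 54.3, 57.6 and 65.6 CPM in KO (59.2 ± 5.81) and 37.2, 36.9 and 34.1 CPM in WT (36.1 ± 1.68). The lowest KO library lay just above the highest of the other 9 libraries, a P2+ library at 53.9 CPM, and the log2 fold change against WT was 0.71 (SE 0.10, adjusted p = 7.51e-05), a 1.63-fold difference. Cd48, its family member and neighbour on chromosome 1, had 80.8, 71.7 and 73.4 CPM in KO and was 1.48-fold higher than in WT (0.56, SE 0.08, adjusted p = 1.53e-04). The Cd48 difference from WT was thus present in KO as well as in P2- and P2+. The 3 comparisons share the WT libraries, so they do not show this independently.

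Cd34 and Cd9 were lower in KO. Cd34 had 90.3, 71.7 and 61.9 CPM in KO (74.6 ± 14.4) and was 1.76-fold below WT (log2 fold change -0.81, SE 0.11, adjusted p = 6.06e-05). Cd9 had 51.7, 52.3 and 56.9 CPM (53.7 ± 2.84) and was 1.74-fold below WT (-0.80, SE 0.08, adjusted p = 2.19e-06). For both genes the KO libraries fell between P2- and WT without overlapping either, at 10.2% and 19.4% of the way from P2- to P2+. Calls for Slamf1, Cd48, Cd34 and Cd9 stood in all 13 alternative fits of this comparison, which leave aside the 2-fold requirement that none of them met.

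Kit (984, 1145 and 1136 CPM in KO) and Eng (106, 109 and 113 CPM in KO against 117, 126 and 140.4 in WT) passed narrowly. Kit had a log2 fold change of 0.21 (SE 0.07, adjusted p = 0.0484) with overlapping libraries, and Eng -0.24 (SE 0.08, adjusted p = 0.0433). Each lost its call in 6 of 13 alternative fits, with adjusted p of up to 0.219 for Kit and 0.269 for Eng. Fcgr2b had 12.4, 11.9 and 11.7 CPM in KO, all above WT, and did not pass (0.49, SE 0.18, adjusted p = 0.0760). Ly6a (0.22, 95% interval -0.73 to 1.17, adjusted p = 0.807) and Fcgr3 (-0.61, 95% interval -1.53 to 0.30, adjusted p = 0.406) had wide intervals at these counts.

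**Figure D3:**
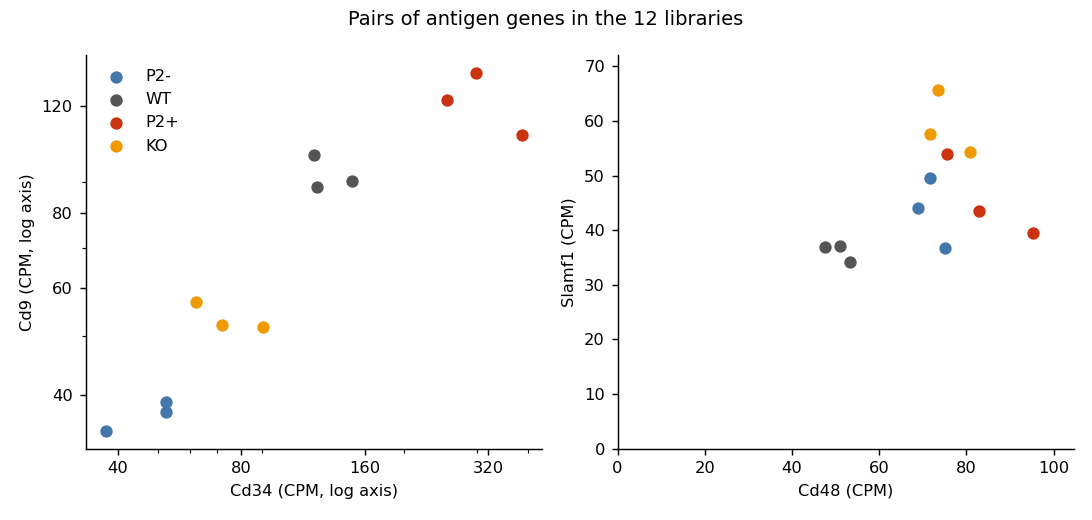
Each of the 12 libraries placed by Cd34 and Cd9 CPM (left, both axes logarithmic) and by Cd48 and Slamf1 CPM (right, linear axes from 0), coloured by group. The groups lie along a line for Cd34 and Cd9, in the order P2-, KO, WT, P2+, whereas WT lies apart at low Cd48 and KO at high Slamf1.

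KO was then set against each reporter group, which share the KO libraries with each other and with the comparison above. Against P2-, 8 of the 9 genes passed the count filter (Fcgr3 did not) and 1 of them passed the test, beside 1.61% of all 12588 genes (1.33% higher and 0.278% lower in KO) and 0.508% at least 2-fold. This was Cd9, 1.44-fold higher in KO (log2 fold change 0.53, SE 0.09, adjusted p = 0.0164). Leaving out any of the KO libraries ended that call (adjusted p of 0.0787 to 0.0992). Cd34 (0.64, SE 0.16, adjusted p = 0.0774), Fcgr2b (0.66, SE 0.16, adjusted p = 0.0854) and Slamf1 (0.44, SE 0.12, adjusted p = 0.105) had non-overlapping libraries, all higher in KO, and did not pass. Libraries did not overlap for 5 of the 9 genes, beside 21.4% of all genes that passed the count filter. The 5 include Fcgr3, which did not pass that filter. Without P2- replicate 2, the library with the highest immediate early genes, 3 genes passed: Cd9 (0.49, adjusted p = 0.0123), Cd34 (0.50, adjusted p = 0.0289) and Fcgr2b (0.72, adjusted p = 0.0487). The 95% interval ran from -0.16 to 0.23 for Kit (log2 fold change 0.03) and from -0.11 to 0.24 for Cd48 (0.06).

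Against P2+, 6 of the 9 passed, beside 37.1% of all 12807 genes, 2 higher in KO and 4 lower, beside 16.7% and 20.3% of all genes, and 3 of them at least 2-fold, beside 11.4%. Libraries did not overlap for 6 genes, beside 50.5% of all genes. Cd34 was 4.22-fold lower (log2 fold change -2.08, SE 0.16, adjusted p = 5.69e-06), Cd9 2.30-fold lower (-1.20, SE 0.10, adjusted p = 5.88e-06), Ly6a 2.47-fold lower (-1.30, SE 0.37, adjusted p = 0.0175) and Fcgr2b 1.40-fold lower (-0.49, SE 0.14, adjusted p = 0.0180). Kit was 1.32-fold higher (0.41, SE 0.08, adjusted p = 0.00244) and Slamf1 1.28-fold higher (0.36, SE 0.12, adjusted p = 0.0383). Without KO replicate 2 or KO replicate 3, Slamf1, Ly6a and Fcgr2b no longer passed and the count was 3. Slamf1 also lost its call without KO replicate 1, P2+ replicate 1 or P2+ replicate 2, with adjusted p of 0.0502, 0.126 and 0.0588, and Ly6a without P2+ replicate 3 (adjusted p = 0.0543).

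The order of the 4 groups differed among the 9 genes. Cd34 and Cd9 ran from P2- through KO and WT to P2+, with each step passing the test except P2- to KO for Cd34. For Fcgr2b the order was P2-, WT, KO, P2+, and of the neighbours only KO and P2+ differed. Cd48 ran WT, P2-, KO, P2+ with a single step, from WT to P2-, that passed, and Slamf1 ran WT, P2-, P2+, KO, where only the last step passed. For Kit (P2+, WT, P2-, KO), Eng (P2+, KO, P2-, WT) and Fcgr3 (P2-, KO, P2+, WT) no neighbours passed the test, Fcgr3 having been untested between KO and P2-. Ly6a ran WT, KO, P2-, P2+, with no passing neighbours either, although P2- and P2+ differed with the replicate number as a block (adjusted p = 0.0398). The place of P2- above KO rested on P2- replicate 2, without which the log2 fold change of KO against P2- turned from -0.28 to 0.17 (adjusted p = 0.911). The ratio of the highest to the lowest group mean was 6.58 for Cd34, 3.29 for Cd9, 2.95 for Fcgr3, 2.89 for Ly6a, 1.67 for Cd48, 1.64 for Slamf1, 1.34 for Kit and 1.23 for Eng, with Fcgr2b between Ly6a and Cd48. The ratios of Fcgr3 and Ly6a rest on 5 to 29 and 11 to 52 counts per library. Their coefficients of variation within groups reached 42% and 51.2%. Cd34 and Cd9, outside the gate, had the largest ratios, and Kit and Eng, inside it, the smallest. Cd48, also outside it, lay below the IgG receptor genes and Ly6a, which encode antigens the gate removes. How the ratios relate to the gate was not tested.

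The antibody to CD16/32 reads both IgG receptors together, whereas RNA separates them. Fcgr2b gave 83.1% (exact 95% interval 76.7 to 88.4), 85.7% (77.5 to 91.8) and 83.7% (76.2 to 89.6) of the combined Fcgr2b and Fcgr3 counts in the WT libraries. In the other groups the share was 89.8% to 95.5% in P2-, 91.9% to 93.6% in P2+ and 90.8% to 92.8% in KO. WT libraries were thus the lowest, and the intervals, which cover counting error only, overlapped between most libraries. How many counts each gene took from the shared run printed above was not tested.

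**Figure D4:**
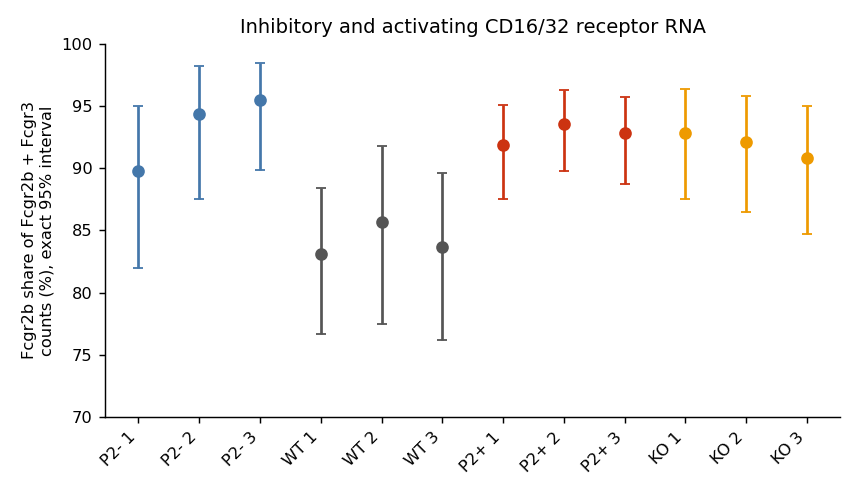
Fcgr2b counts as a percentage of Fcgr2b plus Fcgr3 counts (vertical axis, from 70 to 100%) in each library, with exact 95% binomial intervals. The 3 WT points lie between 83.1% and 85.7%, below the other 9 libraries.

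Other genes of the antigens' families were read from lists of relatives and of other gating antigens. Between P2+ and P2-, 12 of 19 tested antigens used elsewhere to gate blood progenitors were higher in P2+ and 4 lower. Of the 12, Fcer1a, Flt3, Csf1r, Thy1 and Procr were under 1 CPM in every P2- library. They passed the count filter only through P2+, which set their direction. The antigens with the largest differences included Itgb3 (integrin beta 3, 15.1 against 182 CPM, log2 fold change 3.59) and Esam (an endothelial and stem cell adhesion molecule, 5.64 against 41.8 CPM, 2.90). Itga2b, which encodes the CD41 that the gate excluded, had 51.0 CPM in P2-, 115 in KO, 156 in WT and 282 in P2+. Among 17 other tetraspanins and partners tested, 6 were higher and 2 lower in P2+: Cd53 (log2 fold change 2.88) and Tspan5 (1.79) were higher, as Cd9 was, while Cd82 (-1.63) and Tspan33 (-1.58) were lower. In the CD34 family of sialomucins 2 of 5 others tested were higher in P2+ and 0 lower, with a median log2 fold change of 0.0118. Podxl (podocalyxin) was higher in P2+ (10.6 against 55.1 CPM, log2 fold change 2.39) and Cd164 did not pass (-0.05). Emcn, the other higher gene, had at most 0.777 CPM in P2- and passed the count filter only through P2+, which set its direction.

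All 3 other SLAM family genes tested, of 9 listed, were higher in P2+, among them Cd84 (119 against 174 CPM, 0.55) and Ly9 (6.99 against 12.9 CPM, 0.89). The remaining gene, Cd244, had at most 0.385 CPM in P2- and passed the count filter only through P2+, which set its direction. All 4 other Fc receptor genes tested, of 6 listed, were higher as well, including Ms4a2 (the beta chain of the IgE receptor, 9.20 against 70.6 CPM, 2.96) and Fcer1g (the signalling gamma chain that Fcgr3 needs, 3.16 against 6.48 CPM, 1.05). Fcer1a, also among the 4, had 0 counts in every P2- library and passed the count filter only through P2+, which set its direction. Of the endoglin list, 3 of 7 others were higher, with Bmpr2 (a BMP type II receptor) at 0.87 and Tgfbr2 (the TGF-beta type II receptor) at 0.41. Of the Kit signalling list, 5 of 12 others were higher and 2 lower, with Lyn at 0.52 and Ptpn6, a phosphatase that dampens Kit, at -0.34. Flt3 and Csf1r, among the 5, passed the count filter only through P2+, which set their direction. In this comparison 20.1% of all genes were higher in P2+ and 17% lower.

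In KO against WT, 4 of 18 gating antigens tested were higher and 7 lower. Of the genes that reached a mean of 5 CPM in either group, the largest differences were in Cd24a (heat-stable antigen, 293 CPM in WT against 727 in KO, log2 fold change 1.30) and Cd38 (5.96 against 3.03 CPM, -0.99). Itgb3 (100.04 against 53.3 CPM) was lower by -0.91. Of the other tetraspanins and partners 1 of 17 was higher and 4 lower, among them Tspan4 (-0.58) and Tspan14 (-0.49). None of the 3 other SLAM family genes tested was higher and 1 was lower, so Slamf1 and Cd48 were the members of that list that were higher in KO. Of 3 other Fc receptor genes tested, Fcer1g fell from 8.07 to 4.52 CPM (-0.84, adjusted p = 0.0204) and Ms4a2 was higher (17.0 against 28.2 CPM, 0.71, adjusted p = 0.0469). Bmpr2 was lower at -0.35 (adjusted p = 0.00992), beside Eng at -0.24. In this comparison 6.18% of all genes were higher and 8.76% lower.

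Granulocyte, lymphoid, mast cell and stem cell genes varied with the groups too. Summed over their lists, 8 stem cell genes had 312 to 354 CPM in P2-, 373 to 420 in KO, 545 to 574 in WT and 820 to 873 in P2+, a sum in the same order as Cd34 and Cd9. Meis1 gave the largest part of it, with 123, 172, 269 and 429 CPM in these groups. Single genes did not all share the order: Mecom had 6.93 CPM in P2- and 6.76 in KO, and Hoxa9 41.5 and 39.2. Between KO and P2-, 1 of 7 stem cell genes tested was higher in KO, beside 1.33% of all genes, with a median log2 fold change of -0.00625. Granulocyte and monocyte genes had 31.9 to 72.6 CPM in KO. The 7 mast cell and basophil genes had 911 to 986 CPM in P2- and 1010 to 1240 in the other groups, most of it Gata2, with 1 to 4 of the 7 at 0 in all libraries of a group. Gata2 hides the rest of that list in the sum: between P2+ and P2-, 3 of 4 tested were higher in P2+, beside 20.1% of all genes, with a median log2 fold change of 2.10. Fcer1a, 1 of the 3, had 0 counts in every P2- library. It passed the count filter only through P2+, which set its direction, and it counts in that median. Cpa3 (mast cell carboxypeptidase) had 16.7 CPM in P2-, 14.2 in WT, 28.2 in KO and 39.1 in P2+. The 8 lymphoid genes had 3.39 to 9.56 CPM in P2-, 9.09 to 12.2 in KO, 12.4 to 21.4 in WT and 11.1 to 59.3 in P2+, and 1 or 2 of them were at 0 in all libraries of a group. Their part in the antigen results was not tested.

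Genes whose log2 CPM followed each antigen most closely over the 12 libraries were sought among 10724 genes with at least 5 CPM on average. The 12 points share group, gate and library, so the correlations below describe and do not test. Cd34 was followed by 2810417H13Rik (Pearson r 0.990), Eltd1 (0.989) and Hlf (0.988), with Spearman rho of at least 0.986 and r of 0.758 to 0.846 after removal of group means. Cd9 was followed by Bin2 (0.990), 1810058I24Rik (0.986) and Cxxc5 (0.985), with rho of 0.972 to 0.986 and r within groups of 0.393 to 0.742. Cd34 and Cd9 themselves correlated with r of 0.932 over the 12 libraries and -0.323 within groups, so their likeness lay between the groups. Fcgr2b was followed by Csf3r (0.978), the G-CSF receptor gene, Tanc2 (0.976) and Mdga1 (0.970), with rho of 0.937 to 0.972. Fcgr3 was followed by Ccng2 (0.935), Klhl6 (0.900) and Fcer1g (0.892), with rho of 0.895 to 0.951.

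After removal of group means the correlations ranged from high for followers of Kit and Eng to low for some others. Kit went with Gpatch8 (r 0.968, within groups 0.927), Rev3l (0.952) and Wdr81 (0.940), with rho of 0.902 to 0.993. Eng went with Bcl7b (0.928, within groups 0.943), Med11 (0.926) and Ryk (0.897), with rho of 0.853 to 0.923. Slamf1 was followed by Itgal (0.911), the integrin alpha L gene, Tmem246 (0.879) and Caskin2 (0.869, but 0.237 within groups), with rho of 0.790 to 0.930. Cd48 was followed by Fbxl14 (0.936), Slc31a1 (0.926) and Fer (0.924), and Ly6a by Gm14287 (0.939), Ssfa2 (0.909) and Hdc (0.907), with rho of 0.895 to 0.916 and 0.846 to 0.930 respectively. The correlation of Slamf1 with Cd48 was 0.454 over the 12 libraries and -0.744 within groups.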

How the data were processed

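RNA was extracted from sorted PreMegEs and strand-specific poly(A) libraries were sequenced as paired 75-base reads. Per the labels and the study's methods, the authors aligned reads with Bowtie2 to GRCm38 (Ensembl annotation) and deposited raw counts per gene made with featureCounts; whether counting used strand, and how multi-mapping reads were treated, is not given in the sources used here. The submitters' processing notes list Bowtie2 2.21, SAMtools 0.1.19, R 3.1.0 and edgeR 3.8.5.

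From these counts, each pair of groups was fitted with edgeR 4.0.16 (R 4.3.3): TMM scaling, a filter that kept genes reaching 1 CPM in 3 or more of the 6 libraries, the quasi-likelihood test across all genes and Benjamini-Hochberg adjustment, two-sided, with a gene called at an adjusted p under 0.05. This test takes the place of the edgeR exact test of the study's methods, which was run as an alternative. SE is the size of the log2 fold change divided by the square root of F, and 95% intervals use the test's degrees of freedom. Descriptive CPM use TMM library sizes and RPKM divide CPM by kilobases of annotated exon (GENCODE vM21). Libraries are pools of mice, and p-values measure the spread between pools. Depth was 10726098 to 14445026 counts, and intervals of shares cover counting error only. Scripts were tested on simulated data. Alternatives were RLE scaling, DESeq2 1.42.0, edgeR's exact test, no filter and a filter of 5 CPM, all 12 libraries in a single fit, the replicate number as a block, a 2-fold requirement, and leaving out each library.

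Replicate numbers come from the labels. They were taken to pair P2+ with P2-, where all 3 same-number correlations were above 0.1, and no other groups. The named genes were the 9 antigen genes, Runx1, from each list up to 4 genes with the largest differences that passed and at least 5 CPM, and the 3 closest followers of each antigen gene over the 12 libraries (log2 CPM, prior count 2). Cd164 and Itga2b in all groups were named after their values were seen. The genes and lists were chosen with earlier results of these data known. Of 41128 genes in the table, 40254 were found in GENCODE vM21. Promoter windows are from RefSeq.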

Additional observations from a re-analysis of the deposited data

How the results depend on the processing

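Over 715 alternative fits of single antigen genes, 648 stayed on their side of the threshold, 37 lost the call, 30 gained it and 0 of the called differences reversed. Of the 648, 15 turned sign, all of differences that were not called. Cd34 and Cd9 between P2+ and P2-, and Cd34, Cd9, Cd48 and Slamf1 between KO and WT, kept their calls in each of these fits, although none of the KO calls met the 2-fold requirement below. With edgeR's exact test Kit lost its call in P2+ against P2- (adjusted p = 0.133), and Fcgr3 gained one there (0.0427) and in P2- against WT (0.0132).

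Requiring a 2-fold difference as well left 1626 genes in P2+ against P2-, 497 in P2+ against WT (2 of the 9 antigen genes), 597 in P2- against WT, 436 in KO against WT (0 of the 9), 64 in KO against P2- (0 of the 9) and 1454 in KO against P2+ (3 of the 9). A single fit of all 12 libraries called 7 of the 9 in P2+ against P2-, 2 of the 9 and 325 genes in KO against P2-, and 1271 genes in KO against WT. For KO against P2-, DESeq2 called 490 genes, edgeR's exact test 359 and the fit without a filter 465, with 3 of the 9 in each, against 203 genes and 1 of the 9 as reported. The cause of these differences was not tested.

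Pairing by replicate block gave 7 of the 9 and 6514 genes (50.7%) in P2+ against P2-, against 4762 as reported. In KO against P2-, where the numbers do not pair the samples, the replicate block gave 102 genes and 0 of the 9, and in P2+ against WT it added Eng (adjusted p = 0.0403). It changed no other call of the antigen genes.

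Leaving out libraries, 3 to 5 of the 9 passed in P2+ against P2-, 3 to 6 in P2+ against WT, 3 to 4 in P2- against WT, 4 to 6 in KO against WT, 0 to 3 in KO against P2- and 3 to 5 in KO against P2+. The genes called ranged over 3573 to 4554, 1213 to 2447, 1068 to 2189, 1194 to 1648, 42 to 409 and 3427 to 5071 in the same order. The low ends fell without WT replicate 1 or 2 in the WT comparisons of the reporter groups and without KO replicate 3 in KO against WT, and the high end in KO against P2- came without P2- replicate 2. Depth limits Fcgr3 (5 to 29 counts per library) and Ly6a (11 to 52) most.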
